A study of Bos taurus with 6 samples.

Results

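The genes that carry cholesterol into the steroid-producing cell and its mitochondria and turn it into progesterone were followed in bovine granulosa cells, the cells that line the ovarian follicle. The list holds 10 genes of this pathway, named by their roles, with no cutoff on measured values: STAR, CYP11A1, HSD3B1, FDX1, FDXR, SCARB1, NR5A1, NR5A2, STARD3 and TSPO. Probes on the array named 9 of them. FDXR had none with its symbol and was not analysed here. These 9 genes had 14 probes, all of which are described, and 10 probes of 7 genes were bright enough to be tested. All tested probes numbered 23480 of the 43794 on the array and stood for 9933 named genes.

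In a follicle, cholesterol enters the cell through lipoprotein receptors such as SCARB1 and reaches the inner mitochondrial membrane with the help of STAR. There CYP11A1 cuts the side chain to make pregnenolone, using electrons that FDXR and FDX1 hand on from NADPH, and HSD3B1 turns pregnenolone into progesterone. The nuclear receptors NR5A1 and NR5A2 bind and switch on several of these genes. Granulosa cells make mainly estradiol until the LH surge and progesterone after it, as they become the luteal cells of the corpus luteum.

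RNA came from multiparous Hereford cross-bred beef cows that had FSH every 12 h. Treatment lasted 4 days in the conventional FSH group and 7 days in the long FSH group, and 3 cows of each were on the arrays. Both groups had their follicles ablated beforehand, carried a progesterone-releasing device during FSH, and received prostaglandin F2α and then LH. Both lost their ovaries 24 h after LH, so an untreated cow or a cow before LH is not part of the comparison. The long FSH cows had FSH, the device and follicle growth for longer, and these cannot be told apart. Equal amounts of RNA from the largest follicles of a cow were pooled and amplified. Each long FSH cow was hybridised against 1 conventional FSH cow on 2 arrays with the dyes exchanged, which gave 3 cow pairs on 6 arrays. The swapped arrays carry 1 and the same RNA of each cow and count as 1 replicate. In bulk RNA, fewer cells of a type and less RNA per cell cannot be told apart.

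Values are background-subtracted spot intensities, normalized and put on the log2 scale. A log2 ratio of 1 stands for a 2-fold higher signal in the long FSH cow of a pair, and the mean of the pairs is given with its SD (n = 3 cow pairs). Which dye marks which group is stated in opposite ways by the sample labels and by the series' design text. The direction used here follows the design text and the legends of the study, and is called likely. If the label dyes hold for the spot intensities instead, every higher value from them would be lower and every lower value higher. The log2 ratios deposited by the authors run opposite to the spot intensities of their own arrays (r = -0.39 to -0.69). Turned by the label dyes, they gave the direction used here, with STAR (EMBV3_03849) at 2.81. That match follows from using the other dye rule for them, so it does not settle the direction. A probe was called at the study's threshold, which is a limma P of 0.05 or less and at least a 2-fold difference. Limma's p adjusted over all tested probes (Benjamini-Hochberg) is printed for each tested member probe and for many of the other genes. It was 0.127 or more for every tested probe. An exact two-sided test that flips the signs of 3 pairs cannot go below p = 0.25, and one over 3 cows against 3 cannot go below p = 0.1, so neither could pass 0.05.

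Per array and dye, 41.8% to 51.4% of probes were above background. With 3 cow pairs the precision of all values is limited. Across the tested probes, whose values are not independent of each other, swapped arrays of a pair correlated with r = 0.24 to 0.65. The pairs correlated with each other at r = 0.16 to 0.43.

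In the likely direction, 4 of the 10 tested probes were called higher in the long FSH group. They were 2 probes of STAR, the probe of HSD3B1 and 1 of 3 probes of NR5A2. The called higher share over all tested probes was 2.48%. The probe of SCARB1 was called lower, where 1.46% of all tested probes were. The 5 others, for CYP11A1, FDX1, TSPO and the other NR5A2 probes, were not called. In either direction 3.94% of all tested probes were called. With the sign turned, 4 would be lower and 1 higher. No probe on the array passed the adjusted threshold (0% of all tested probes), although 2220 probes had an unadjusted P of 0.05 or less. The smallest adjusted p among the members was 0.214 and the smallest of all probes 0.127.

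Signals of the cows themselves were compared as well. All 3 long FSH cows lay above all 3 conventional FSH cows for 3 member probes, where 7.86% of all tested probes did so. They lay below for 1 member probe, against 6.33% of all tested probes, and the groups overlapped for the other 6. A mean difference of at least 2-fold in either direction was seen for 6 of the 10 member probes (60%), against 5.04% of all tested probes. The pairs fell on the same side of 0 in 4 of the 10 (40%), against 35.8% of all tested probes.

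**Figure D1:**
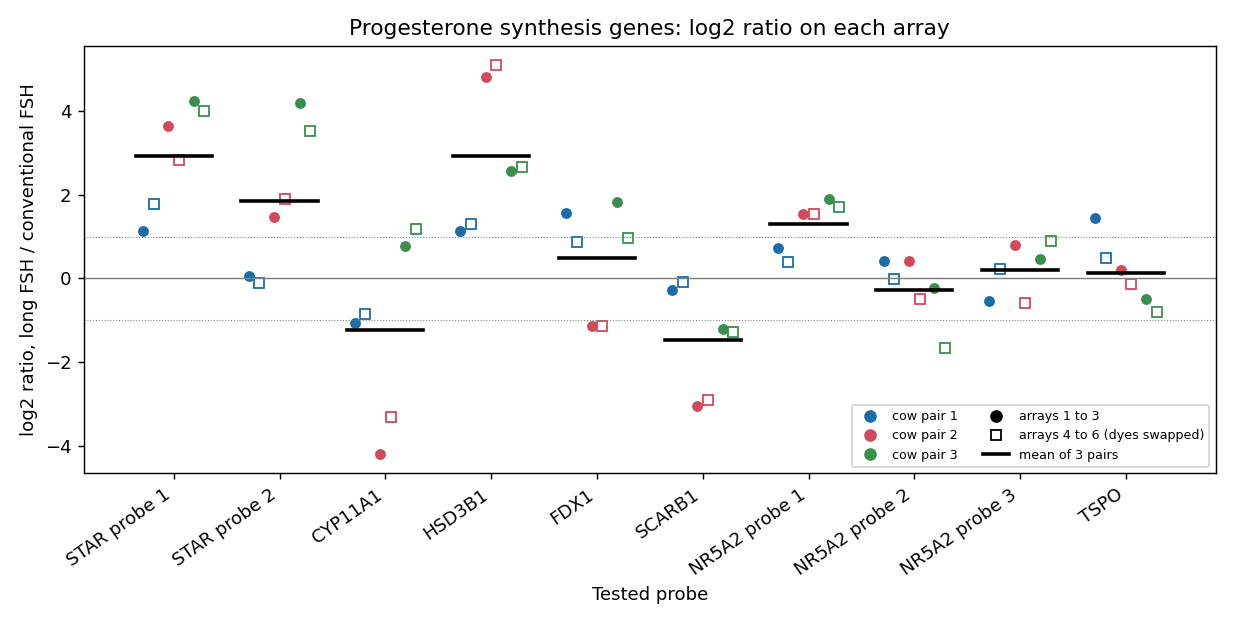
Log2 ratio (long FSH over conventional FSH, likely direction) on each of the 6 arrays for the 10 tested probes. Colours mark cow pairs, filled circles arrays 1 to 3, open squares the dye-swapped arrays 4 to 6, black bars the mean of the 3 pairs and dotted lines a 2-fold difference. Both STAR probes, HSD3B1 and the first NR5A2 probe have means above 1, from 1.30 to 2.94, while CYP11A1 and SCARB1 lie below -1 with pair 2 farthest down.

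STAR encodes the protein that moves cholesterol to the inner mitochondrial membrane, the rate-limiting step of acute steroid synthesis. Its brightest probe (EMBV3_03849) had background-subtracted intensities of 1563, 3252, 6011, 1869, 3185 and 7501 in the long FSH cows on arrays 1 to 6. The conventional FSH cows read 955, 275, 461, 490, 315 and 366 on the same arrays. On every array the long FSH cow was the brighter of the pair, by the least on both arrays of pair 1. As normalized log2 signals, long FSH cows 1, 2 and 3 were at 10.75, 11.71 and 12.65, and conventional FSH cows 1, 2 and 3 at 9.29, 8.48 and 8.53. The groups did not overlap, and the long FSH cows were more spread out (range 1.90) than the conventional FSH cows (range 0.81).

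The log2 ratios of this STAR probe were 1.46, 3.23 and 4.12 in pairs 1, 2 and 3. Their mean was 2.94 ± 1.35 (SD, n = 3 cow pairs), a 7.66-fold higher level in the long FSH group. Its 95% confidence interval in limma ran from 1.67 to 4.20. Limma draws the variance of a probe toward that of all tested probes. This interval and those below are therefore narrower than the SD of 3 pairs alone would give. The probe was past the study's threshold, with an adjusted p of 0.214 in limma. With the 6 arrays entered singly and the cow pair as replicate block, the adjusted p was 0.00346, in a fit that called 590 probes. That fit counts both arrays of the same RNA largely as separate samples. The probe passed the study's threshold in each of 24 alternative settings, with means from 2.35 (without pair 3) to 3.68 (without pair 1).

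The second STAR probe (EMBV3_20036) gave a smaller and less even difference. Long FSH cows 1, 2 and 3 were at 8.86, 10.27 and 11.50, and conventional FSH cows 1, 2 and 3 at 8.88, 8.59 and 7.64. Long FSH cow 1 lay just under conventional FSH cow 1, so the groups overlapped by that pair. The pair ratios were -0.022, 1.68 and 3.87, with a mean of 1.84 ± 1.95 and a confidence interval from 0.095 to 3.59. It was past the study's threshold, with an adjusted p of 0.511. Without pair 3 the mean was 0.83 and the call was lost, as it was under 5 other settings of background, centring, source or limma options that moved the mean little (1.76 to 2.04). The first probe read higher than the second by 1.48, 1.55 and 0.25 on the log2 ratio scale in pairs 1, 2 and 3. Both probes put the pairs in the same order. The remaining STAR probe (EMBV3_18125) was above background in 1 of 6 long FSH readings and 0 of 6 conventional FSH readings, and was not tested.

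HSD3B1 encodes the enzyme that completes progesterone from pregnenolone. Its probe (EMBV3_35958) read 2267, 2738, 4114, 3029, 5623 and 6171 in the long FSH cows on arrays 1 to 6, and 1378, 105, 982, 1205, 113 and 760 in the conventional FSH cows. The lowest values, 105 and 113, both came from conventional FSH cow 2, and 1 of these readings was not above background. In normalized log2 signal, long FSH cows 1, 2 and 3 were at 11.42, 12.01 and 12.25 and conventional FSH cows 1, 2 and 3 at 10.20, 7.05 and 9.62. The groups did not overlap, and the conventional FSH cows ranged over 3.14 log2 units against 0.83 in the long FSH cows.

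For HSD3B1 the pair ratios were 1.22, 4.96 and 2.62, and the mean was 2.93 ± 1.89 (SD, n = 3 cow pairs), or 7.65-fold. The confidence interval ran from 1.24 to 4.63, and the adjusted p was 0.314. With the cow pair as replicate block the adjusted p was 0.00931. Without pair 2, which holds the dim conventional FSH cow, the mean fell to 1.92 and stayed past the study's threshold. The call was lost with limma's trend and robust options. Whether the probe also binds messages of related 3β-hydroxysteroid dehydrogenase genes was not analysed here.

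NR5A2, also named LRH-1, is the NR5A receptor best known from granulosa and luteal cells. Its brightest probe (EMBV3_40939) had the smallest SD between pairs of the called probes. Long FSH cows 1, 2 and 3 were at 12.83, 13.03 and 13.31, and conventional FSH cows 1, 2 and 3 at 12.27, 11.50 and 11.50. The groups did not overlap, and the narrowest gap was between the cows of pair 1. Pair ratios of 0.56, 1.54 and 1.80 gave a mean of 1.30 ± 0.66, a 2.46-fold higher level (confidence interval 0.56 to 2.04). The adjusted p was 0.312, and with the cow pair as replicate block it was 0.0182. The call was lost with limma's trend and robust options (1.30) and in the deposited log2 ratios (1.01).

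The other NR5A2 probes did not repeat this difference. EMBV3_09371 gave pair ratios of 0.20, -0.047 and -0.96, with a mean of -0.27 ± 0.61 and a confidence interval from -0.98 to 0.44 (adjusted p = 0.713). EMBV3_29870 gave -0.16, 0.10 and 0.68, with a mean of 0.21 ± 0.43 and an interval from -0.40 to 0.81 (adjusted p = 0.736). EMBV3_29870 was dim, with readings of 144 to 387 after background subtraction, against 2586 to 11920 for the brightest probe. A difference is harder to see at such signals. The brightest probe read higher than EMBV3_09371 in every pair, by 0.36, 1.58 and 2.76. It read higher than EMBV3_29870 by 0.72, 1.44 and 1.13. The difference of NR5A2 therefore rests on 1 of 3 probes, and which transcripts each probe covers was not analysed here. Of the related receptor NR5A1, known as steroidogenic factor 1, the only probe was above background in 2 of 6 long FSH readings and 1 of 6 conventional FSH readings, and was not tested.

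**Figure D2:**
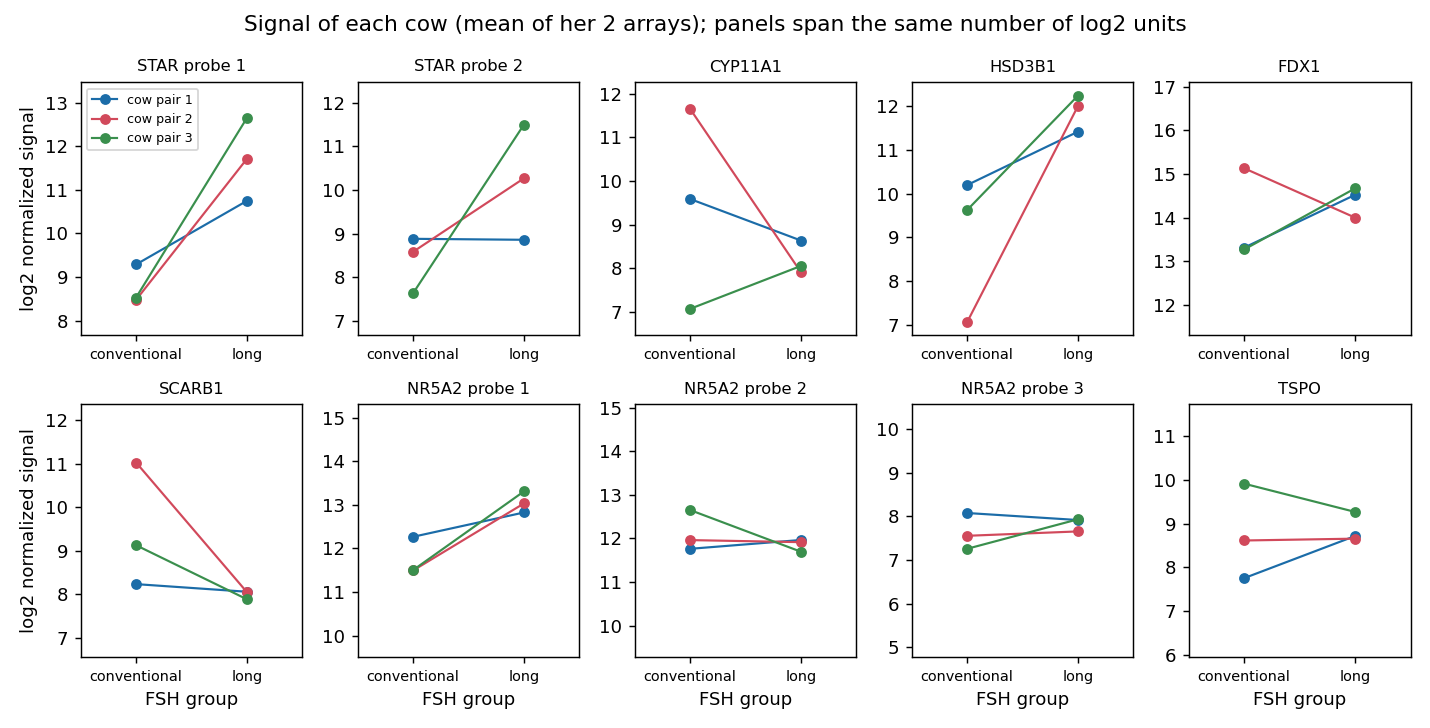
Normalized log2 signal of each cow (mean of both arrays) for the 10 tested probes, conventional FSH cow on the left and long FSH cow on the right of each panel, joined by pair. Each panel spans the same number of log2 units at its own level, and levels of different probes are not comparable. The long FSH cows of SCARB1 lie within 0.17 log2 units and those of CYP11A1 within 0.73, while the conventional FSH cows spread over 2.79 and 4.58. The long FSH readings of both probes were dim.

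SCARB1, the receptor through which cells take cholesterol from high-density lipoprotein, was the only member called lower. Long FSH cows 1, 2 and 3 were at 8.06, 8.05 and 7.89, nearly at 1 level (SD 0.097). Their readings were dim, 208 to 365 after background subtraction, where the limits for being above background were 95.2 to 200. Conventional FSH cows 1, 2 and 3 were at 8.24, 11.02 and 9.13 (SD 1.42). No cow of one group reached into the other, but pair 1 differed by only -0.17, against -2.97 and -1.24 in pairs 2 and 3. The mean was -1.46 ± 1.41, a 2.76-fold lower level, with a confidence interval from -2.77 to -0.15. It was past the study's threshold with an adjusted p of 0.491, and with the cow pair as replicate block the adjusted p was 0.0799. The call was lost without pair 2 (-0.71), without pair 3 (-1.57), in the deposited log2 ratios (-1.41) and with limma's trend and robust options. It was lost too when conventional FSH cow 2 alone was left out (-0.68). That setting also drops the pairing of the cows, and was chosen after the data were seen.

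CYP11A1, the side-chain cleavage enzyme that makes pregnenolone, did not follow STAR and HSD3B1. Its probe (EMBV3_31025) was at 8.64, 7.91 and 8.06 in long FSH cows 1, 2 and 3 and at 9.59, 11.65 and 7.07 in conventional FSH cows 1, 2 and 3. The long FSH readings were dim here too, 192 to 504 after background subtraction. Conventional FSH cows held both the highest and the lowest value, and the groups overlapped. The pair ratios were -0.95, -3.75 and 0.98, so pair 3 went against the others. Their mean was -1.24 ± 2.38 with a confidence interval from -3.34 to 0.87 (adjusted p = 0.621). Without pair 2 the mean was 0.016. Without pair 3 it was -2.35 and passed the study's threshold. The interval takes in both a large fall and a rise of less than 2-fold, so no direction was established for CYP11A1.

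FDX1, the iron-sulphur protein that hands electrons to CYP11A1, was bright in every reading. Long FSH cows 1, 2 and 3 were at 14.52, 14.00 and 14.67 and conventional FSH cows 1, 2 and 3 at 13.31, 15.13 and 13.27. The highest of the 6 was conventional FSH cow 2, and the other conventional FSH cows lay below every long FSH cow. Pair ratios of 1.21, -1.13 and 1.40 gave a mean of 0.49 ± 1.41, with an interval from -0.81 to 1.80 (adjusted p = 0.713). Without pair 2 the mean was 1.30 and passed the study's threshold. Leaving out conventional FSH cow 2 alone gave 1.11, also past it.

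TSPO, a cholesterol-binding protein of the outer mitochondrial membrane, and STARD3, which carries cholesterol between endosomes and other membranes, complete the list. The TSPO probe (EMBV3_02268) was at 8.72, 8.66 and 9.27 in long FSH cows 1, 2 and 3 and at 7.75, 8.61 and 9.92 in conventional FSH cows 1, 2 and 3. The long FSH cows lay inside the range of the conventional FSH cows. Pair ratios of 0.97, 0.042 and -0.65 gave a mean of 0.12 ± 0.81, with an interval from -0.73 to 0.97 (adjusted p = 0.892). That interval lies inside a 2-fold difference either way. As limma narrows it, a 2-fold difference of TSPO is not excluded by 3 pairs. Each STARD3 probe was above background in 1 of 6 long FSH readings and 0 of 6 conventional FSH readings, and neither was tested.

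Conventional FSH cow 2 stood at an end of the range in 6 of the 10 tested probes, a count not made over all tested probes. It was the highest of the 6 cows for CYP11A1, FDX1 and SCARB1 and the lowest for STAR (EMBV3_03849), HSD3B1 and NR5A2 (EMBV3_40939). Over all tested probes this cow was the farthest from the median of the cows in 25.0%, the largest share of any cow, and among the member probes in 4 of 10. Conventional FSH cow 3 was the farthest in 4 of 10 member probes too, against 12.3% of all tested probes. Without conventional FSH cow 2, 5 member probes were called higher (both of STAR, HSD3B1, NR5A2 and FDX1) and 0 lower, in a comparison of 3 long FSH cows with 2 conventional FSH cows. It does not use the pairs. Of all 23480 tested probes, 749 were called in either direction in that comparison. STAR was then at 2.79, HSD3B1 at 1.98 and CYP11A1 at -0.13. The higher calls for STAR, HSD3B1 and NR5A2 were made with and without this cow, while the SCARB1 call was lost. On the fold scale, the sizes for HSD3B1, CYP11A1, FDX1 and SCARB1 moved by over 1.5 times.

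Cows of the conventional FSH group differed more among themselves than those of the long FSH group. The SD of the long FSH cows was the smaller one in 8 of 10 member probes (80%), against 57.3% of all tested probes. Only the STAR probes went the other way. For SCARB1 and CYP11A1 the long FSH readings were dim, and what this did to their spread was not tested. The median SD of the member probes was 0.34 in the long FSH group and 0.86 in the conventional FSH group, where all tested probes had 0.28 and 0.31. The swapped arrays of a pair differed by a median log2 ratio of 0.37 in the member probes (0.50 over all tested probes), and the SD between pairs had a median of 1.38 (0.38 over all tested probes). Of 30 pair ratios, 24 had the same sign on both swapped arrays.

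**Figure D3:**
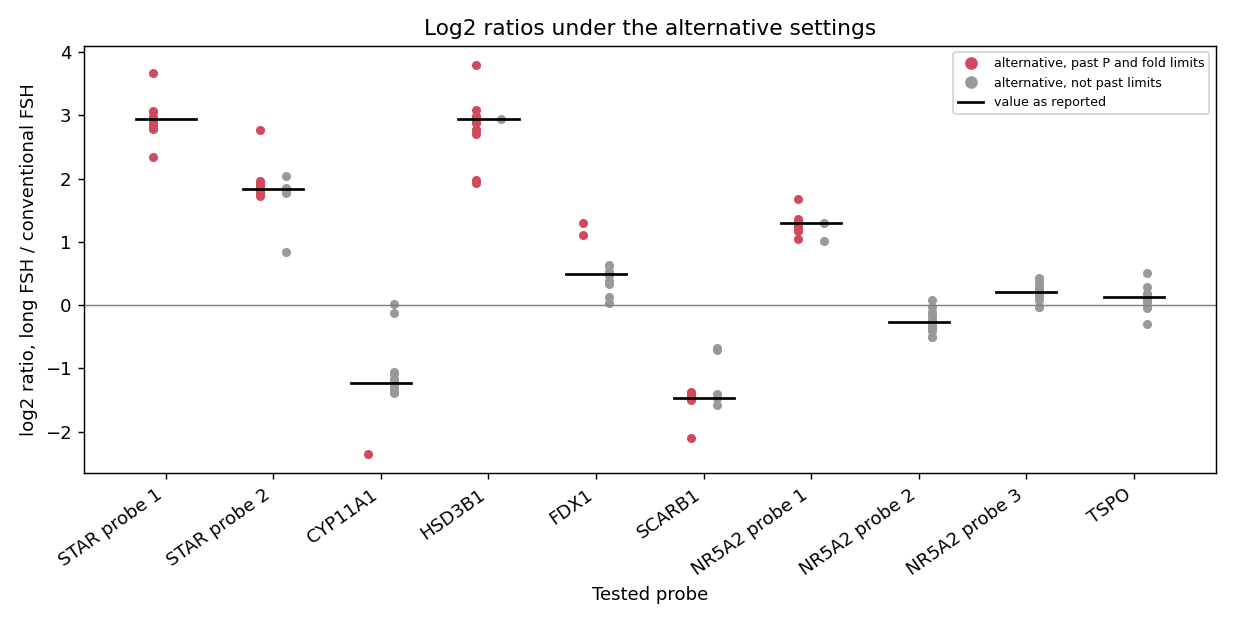
Log2 ratio of each tested probe under the 24 alternative settings (points) beside the value as reported (bar). Red points were past the limits of P and fold, grey points were not. STAR probe 1 passed in 24 of 24 settings, HSD3B1 in 23, NR5A2 probe 1 in 22, SCARB1 in 19 and STAR probe 2 in 18.

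Genes around these steps were counted from lists of related function, with the brightest tested probe of each gene. Over all 9933 genes, 3.39% were called higher and 2.02% lower, and the median log2 ratio was 0.031. Of the 7 tested members, 3 were higher, 1 was lower and 3 were not called, with a median of 0.49. In pairs 1, 2 and 3 the members' median was 0.97, 0.042 and 1.40.

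Of 15 genes of cholesterol delivery and stores, 8 were tested, 1 was higher by its brightest probe and 0 were lower, with a median of 0.24. The higher gene was LIPA, the lysosomal lipase that frees cholesterol from lipoprotein esters. Its pair ratios of 1.14, 0.84 and 1.26 lay close together, and the mean was 1.08 ± 0.22 (adjusted p = 0.245). LIPA passed the study's threshold in 20 of 24 settings. Without pair 3 its mean of 0.99 fell just short of 2-fold. CAV1, the main protein of caveolae, was at 0.94 by its brightest probe and was not called. Its other probe (EMBV3_23111), named after its values were seen, was called higher. As 0 of 6 conventional FSH readings of it were above background, it was at least 1.67-fold higher (adjusted p = 0.300).

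Of 15 mitochondrial partners of STAR and cofactors, 13 were tested and 0 were called, with a median of -0.053. The smallest P belonged to ACBD3, a protein that binds TSPO and protein kinase A, with 0.70 ± 0.50 (adjusted p = 0.498). Next was ATAD3A, a protein of the inner mitochondrial membrane, with -0.61 ± 0.41 (adjusted p = 0.514), whose other probe gave 0.053. The import receptor TOMM22 was at -0.65 ± 0.50 (adjusted p = 0.527), and DBI, a ligand of TSPO, at 0.80 ± 0.81 (adjusted p = 0.545). These 4 genes gave ratios on both sides of 0, each under 2-fold. The largest ratio of the list, 1.28, belonged to cytochrome b5 (CYB5A), with pair ratios of 1.58, 3.12 and -0.86 (adjusted p = 0.582), and its other probe gave 0.053.

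Of 18 regulators of steroidogenic gene transcription, 10 were tested and 0 were called by their brightest probe, with a median of 0.23. GATA4, a transcription factor of the gonad, was at 0.74 ± 0.62 (adjusted p = 0.514). The early response factor NR4A1 had the widest spread, with pair ratios of 3.05, -1.19 and 5.32 and a mean of 2.39 (adjusted p = 0.554). As for FDX1, pair 2 alone went down for NR4A1. A dimmer probe of SREBF2 (EMBV3_37027), a regulator of cholesterol synthesis and uptake genes, was called lower, with pair ratios of -2.13, -1.96 and -1.26. Its mean was -1.78 ± 0.46 (adjusted p = 0.190), it passed in 24 of 24 settings, and the brighter SREBF2 probe was at -0.17. This probe was named after its values were seen.

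Steroid enzymes beyond progesterone had 7 of 13 genes tested, 0 higher and 1 lower, with a median of -0.14. The lower gene was CYP19A1, the aromatase that makes estradiol. Its pair ratios were -0.73, -3.33 and -1.36, and the mean was -1.81 ± 1.35 (adjusted p = 0.390). The cows of the groups overlapped. Without pair 2 the mean was -1.05, still past the study's threshold. The call was lost when the cows were compared 3 against 3 without the pairs, and when conventional FSH cow 2 was left out, which also drops the pairs. Another CYP19A1 probe gave -1.28. The dimmest, above background in 0 of 6 long FSH and 4 of 6 conventional FSH readings, was not called (adjusted p = 0.524). Its pair ratios were -1.74, -0.79 and -0.087. Set against the dimmest signal above background on each array, its mean was 1.54-fold lower. CYP17A1, the androgen-making enzyme of theca cells, had too few readings above background to be tested.

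Of 8 progesterone receptors, 6 were tested and 0 were called, with a median of -0.20. The membrane receptor PAQR5 was at -0.43 ± 0.19 (adjusted p = 0.554). The nuclear receptor PGR had pair ratios of -0.68, -4.70 and 0.58 and a mean of -1.60 ± 2.76 (adjusted p = 0.597), with the same order of pairs as CYP11A1.

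**Figure D4:**
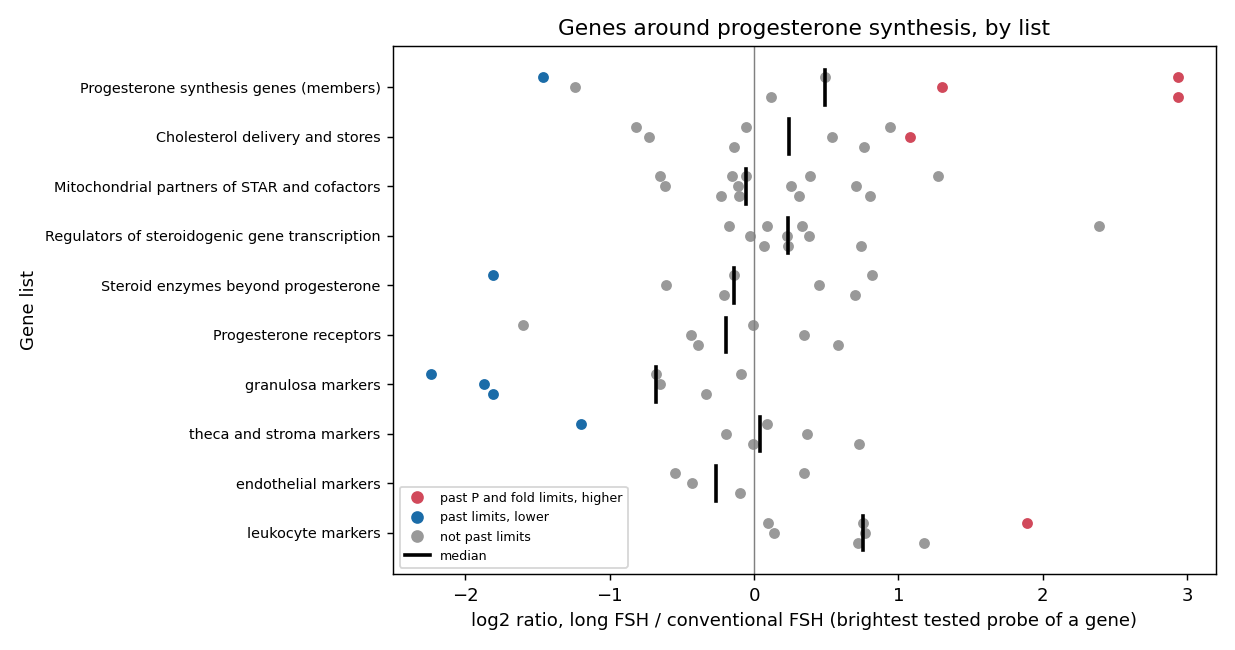
Log2 ratio (long FSH over conventional FSH, likely direction) of the brightest tested probe of each gene, by list. Red points were called higher, blue points called lower, grey points not called, and black bars mark the median of a list. The members' median of 0.49 lies above that of all genes (0.031), the granulosa markers' median of -0.68 below it, and the lists of partners and regulators hold no gene called by its brightest probe.

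Markers of the cell types that the sample could hold were counted in the same way, and 3 of those of granulosa cells were called. Of 8 granulosa markers 7 were tested, 0 were higher and 3 were lower. They were GJA1, the main gap junction protein (-2.24), the protease inhibitor SERPINE2 (-1.87) and CYP19A1. The study describes CYP19A1 and SERPINE2 as genes that normally fall after the LH surge. The other tested markers, AMH (-0.68), INHA (-0.65), FSHR (-0.33) and AMHR2 (-0.089), were not called. GJA1 was at -1.30 without pair 2, and its call was lost when conventional FSH cow 2 was left out. The median of the list was -0.68, and its summed signal was 36816 to 52671 in the long FSH cows and 93549 to 135113 in the conventional FSH cows. On the linear scale of this sum the brightest genes, INHA, SERPINE2 and GJA1, weigh most. The defining granulosa factor FOXL2 had too few readings above background to be tested. The part of cell composition in the member ratios was not tested.

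Of 8 theca and stroma markers 6 were tested, 0 were higher and 1 was lower (DCN, a matrix proteoglycan, at -1.20), with a median of 0.041. DCN was past the study's threshold in 14 of 24 settings, and without pair 2 it was at -0.48 and not called. Their summed signal was 3970 to 8665 in the long FSH cows and 2573 to 8944 in the conventional FSH cows. The defining theca marker CYP17A1 was again among those too dim to test. Endothelial markers had 4 of 7 tested and 0 called, with a median of -0.26 and sums of 799 to 860 and of 871 to 1022. PECAM1 and VWF were too dim to test, and so were the red blood cell markers (0 of 3 tested).

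Leukocyte markers had 7 of 9 tested, 1 higher and 0 lower, with a median of 0.75. The higher gene was TYROBP, a signalling adaptor of myeloid cells. It was above background in 0 of 6 conventional FSH readings, which makes it at least 2.45-fold higher (adjusted p = 0.374), measured against the dimmest signal above background on each array. Its call was lost in the deposited log2 ratios, with limma's trend and robust options and without conventional FSH cow 2. The list's median was 0.21, -0.0062 and 1.62 in pairs 1, 2 and 3, so pair 3, where STAR differed most, also had the highest median. PTPRC, the brightest tested marker of the list, alone went the other way in pair 3 (-0.57), and its mean was 0.099. The summed signal of the leukocyte markers was 3341 to 7749 in the long FSH cows and 2420 to 6091 in the conventional FSH cows, which overlap. This sum is on the linear scale and PTPRC weighs most in it, at 11.78 log2 units in long FSH cow 3 and 12.34 in conventional FSH cow 3. Each other tested marker was higher in long FSH cow 3 than in every conventional FSH cow, with AIF1 at 10.47 and TYROBP at 10.05. Their part in the STAR ratio was not tested. Without pair 3 the brightest STAR probe was at 2.35, past the study's threshold, and the second at 0.83, not past it.

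The genes whose ratios ran closest to STAR over the 6 arrays were picked by the smallest root mean square difference from its brightest probe. DOCK10, a guanine nucleotide exchange factor, came closest, at 0.765 log2 units from STAR and with a mean log2 ratio of 2.25. It was followed by XDH, xanthine dehydrogenase (0.821 from STAR, mean 2.80), and AXL, a receptor tyrosine kinase (0.876, mean 2.26). TNN, tenascin N, was 0.898 away with a mean of 2.63, and BOLA-DQB, a class II histocompatibility gene, 0.904 away with a mean of 2.36. None of these 5 was a gene of the lists above, and the likeness is a description over arrays that share their RNA in pairs.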

How the data were processed

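Granulosa RNA of 6 cows was hybridised on 6 EmbryoGENE bovine 2-colour arrays (Cy3 read at 532 nm, Cy5 at 635 nm). Deposited by the authors were the median intensity of each spot and of its local background, as scanned. They also deposited log2 ratios, which the authors made by background subtraction, 0.5 for negative values, loess and quantile normalization. Each of those columns follows the dye-swap partner of its array (r = 0.84 to 0.90), so it was turned by the label dyes and used as an alternative only.

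Here the background medians were subtracted, 0.5 replaced any result not above 0, and loess and Aquantile normalization followed. Swapped arrays were averaged, and the 3 pair means were tested against 0 with limma 3.58.1 in R 4.3.3, on the log2 scale, across all tested probes. Tested probes exceeded a limit set from the negative controls (their mean and 2 SD more) in 3 or more of the 6 readings in one group or the other. Of all probes 21790 had a gene symbol from the array's annotation, 1524 of them renamed to current symbols. Cows of a pair shared an array, and correlated in how they deviated from their groups (r = 0.153 to 0.260, against -0.0131 at most between pairs). Each group was centred on its 3 cows, which by itself draws values between pairs below 0 when those within pairs are above it. P-values measure the spread between these cow pairs, drawn by limma toward the spread of all tested probes. The SD between pairs had a median of 1.38 in the member probes and 0.38 over all tested probes.

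Members and gene lists were chosen with earlier results of these data known. All member probes were named. From other lists up to 4 genes with the largest called ratios were named or, with none called, the smallest P. Further genes and probes were named in the text for their values. For STAR the 5 closest genes were named. The script was tested on simulated data. Alternatives were other background corrections, normalizations, filters, replicate units, limma options, the deposited ratios, a 1.5-fold limit, and leaving out pairs, arrays or a cow. Sequences, RT-PCR and hormone values were not used here.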

Additional observations from a re-analysis of the deposited data

How the results depend on the processing

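With the 2-fold limit and unadjusted P, 924 of all tested probes and 4 higher and 1 lower member probes were called. In the deposited log2 ratios these counts were 548, 2 and 0, and with limma's trend and robust options 419, 1 and 0. A 1.5-fold limit gave 1983 probes over the array. The adjusted threshold here is an adjusted p of 0.05 or less with at least a 2-fold difference. At this threshold 0 probes passed over the array and 0 members in either direction (2220 probes had an unadjusted P of 0.05 or less). Over the array 90 probes passed it without pair 3, 20 without pair 2, 5 without array 6 and 3 with no filter on dim probes, 0 members among them. Leaving out 1 pair or array at a time gave 844 to 1810 probes over the array (1810 without pair 3), 3 to 5 higher members and 0 to 1 lower members, and leaving out conventional FSH cow 2, a setting chosen after the data were seen, gave 749, 5 and 0. With the 6 arrays entered singly and the cow pair as replicate block, 1136 probes were called, with 4 higher and 1 lower members, and 590 passed the adjusted threshold, 3 members among them. With no replicate block 666 passed, and with the slide as a random block 647, each with 3 members. Of the member ratios, only uncalled ones changed sign. Leaving out pairs or arrays took CYP11A1 from -2.35 to 0.016 (without pair 2), NR5A2 probe EMBV3_29870 from -0.030 to 0.43, NR5A2 probe EMBV3_09371 from -0.51 to 0.077 and TSPO from -0.30 to 0.50. TSPO was at -0.028 in the deposited ratios. The causes were not tested. Of 14 member probes, 4 were not tested because too few readings rose above background.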
